A study of Mus musculus with 6 samples.

Results

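The 9 genes described here encode enzymes of the tricarboxylic acid (TCA) cycle: Cs, Idh3a, Idh3b, Idh3g, Ogdh, Suclg1, Sdha, Fh1 and Mdh2. They were chosen by name from the array's annotation, by a rule that uses no values but was set with earlier results of these data known, and all 9 of 9 were measured, among 18193 genes on the array. The samples were pancreatic islets isolated from male CD1 mice aged 8 weeks, an outbred strain. Islets were given either 0.1% ethanol as vehicle or CMPF at 200 uM, each for 24 hours in culture, and each group held 3 arrays. CMPF is a short name for a carboxylated furan acid that circulates in blood as a breakdown product of furan fatty acids. RNA came from whole islets, so fewer cells of a type and less RNA per cell cannot be told apart. The labels number the samples 1 to 3 in each group, and "pair" below means the vehicle and the CMPF array of 1 number. The labels do not tie the numbered samples to separate mice or islet isolations, so the p-values rest on a spread between samples that may be technical.

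The TCA cycle runs in the mitochondrial matrix and oxidises acetyl-CoA to carbon dioxide, passing the electrons to the respiratory chain. In beta cells, which release insulin, the cycle couples glucose to secretion: its flux supplies ATP, and intermediates that leave the mitochondria serve as signals. Citrate synthase opens the cycle, the isocitrate and 2-oxoglutarate dehydrogenases are its main regulated steps, and succinate dehydrogenase is at the same time complex II of the respiratory chain. The title of the series names metabolism as its subject, so the comparison asks whether these transcripts differ with CMPF.

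For none of the 9 transcripts did the difference between CMPF and vehicle pass the test. The differences, CMPF minus vehicle in log2 units, ran from -0.12 for Ogdh to 0.046 for Idh3a, with a median of -0.0060 against 0.0018 for all genes. In limma's fit over all genes 0 of 9 members passed an adjusted p of 0.05 (smallest adjusted p among them 0.99995), and so did 0% of all genes. An unadjusted p under 0.05 was reached by 0 of 9 members and by 1.13% of all genes. With the replicate number as a block these were 0 of 9 and 3.8%. Were all genes unchanged and independent, about 910 genes would be expected, against 205 without the block and 692 with it. With so few genes reaching it, 0 of 9 tells little about the members. The 95% intervals of the fit without the block bound the difference for these samples only, since their spread may be technical. The lowest of the 9 lower limits was -0.47, for Ogdh, and the highest upper limit was 0.32, for Idh3b. All 9 intervals therefore lay within a 1.5-fold difference either way, as did 89.7% of those of all genes. The standard errors of the 9 ran from 0.0796 to 0.147, and that of the median gene was 0.116.

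Within those bounds the signs of the pair differences are only described, and whether the genes differ among themselves was not tested. Ogdh and Fh1 were lower with CMPF in all 3 pairs, where 11.1% of all genes were, and Idh3a and Idh3b were higher in all 3, where 11.8% of all genes were. The remaining 5 changed sign between pairs. The promoters of Ogdh and Fh1 are printed first. They are followed by those of Dlst and Dld, whose proteins join OGDH in 1 complex and which were also lower in all 3 pairs. That of Sdha comes last, as the member with the smallest difference. Each is the 250 bases before a RefSeq transcription start (GRCm38.p6), 5′ to 3′, with motif matches in capitals.

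Ogdh, chr11:6291347-6291596, plus strand: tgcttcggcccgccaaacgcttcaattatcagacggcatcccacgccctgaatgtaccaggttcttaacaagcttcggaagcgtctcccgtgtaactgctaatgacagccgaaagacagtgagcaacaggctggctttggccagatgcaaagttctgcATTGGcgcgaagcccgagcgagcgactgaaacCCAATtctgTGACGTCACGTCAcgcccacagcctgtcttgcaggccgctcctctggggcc

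Fh1, chr1:175625636-175625885, minus strand: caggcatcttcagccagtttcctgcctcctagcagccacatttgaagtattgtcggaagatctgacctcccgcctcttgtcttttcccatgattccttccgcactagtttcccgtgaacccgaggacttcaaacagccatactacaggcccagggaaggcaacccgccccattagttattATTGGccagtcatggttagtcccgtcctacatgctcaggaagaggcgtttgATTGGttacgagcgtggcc

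Dlst, chr12:85110583-85110832, plus strand: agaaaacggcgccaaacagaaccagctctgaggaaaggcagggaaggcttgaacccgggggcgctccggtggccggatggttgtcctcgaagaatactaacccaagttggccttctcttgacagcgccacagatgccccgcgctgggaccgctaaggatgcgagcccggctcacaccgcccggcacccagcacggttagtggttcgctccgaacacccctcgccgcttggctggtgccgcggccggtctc

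Dld, chr12:31351472-31351721, minus strand: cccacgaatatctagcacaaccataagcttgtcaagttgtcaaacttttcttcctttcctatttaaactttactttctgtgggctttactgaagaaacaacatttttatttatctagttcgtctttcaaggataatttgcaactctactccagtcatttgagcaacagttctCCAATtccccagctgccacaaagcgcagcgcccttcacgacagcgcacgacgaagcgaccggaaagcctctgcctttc

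Sdha, chr13:74350241-74350490, minus strand: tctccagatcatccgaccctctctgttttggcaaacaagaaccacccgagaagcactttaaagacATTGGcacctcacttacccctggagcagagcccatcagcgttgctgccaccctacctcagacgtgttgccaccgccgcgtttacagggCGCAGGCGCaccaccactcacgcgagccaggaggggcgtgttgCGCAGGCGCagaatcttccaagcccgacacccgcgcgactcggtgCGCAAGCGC

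The motifs searched on both strands were the CCAAT box (CCAAT), the core of the nuclear respiratory factor 1 or NRF1 site (GCGCNTGCG), the site of estrogen-related receptors (TCAAGGTCA), the core of the cAMP response element (TGACGT) and an ETS family site (CCGGAAG). Ogdh had 2 CCAAT boxes and 3 overlapping cAMP response element cores. Fh1 had 2 CCAAT boxes, Dld had 1, and no match was found in these letters for Dlst. Sdha had 1 CCAAT box and 3 NRF1 sites, and NRF1 is known as a regulator of respiratory genes. Among all 32851 windows of this length 33.8% held a CCAAT box, 5.19% an NRF1 site, 0.387% a receptor site, 6.47% a cAMP response element core and 6.91% an ETS site. RefSeq windows were matched for 15 cycle genes, and a gene was counted if any of its windows held a match. An NRF1 site was held by 5 of 15 (Idh3g, Ogdh, Sdha, Sucla2 and Sdhd), beside 5.88% of all genes. A CCAAT box was held by 9 of 15, beside 37.5%, and a cAMP response element core by 3, beside 7.29%. An ETS site was held by 2, beside 7.83%, and a receptor site by 0, beside 0.422%. These counts were not tested. For Ogdh the table lists 6 windows, of which the most upstream, without an NRF1 site, is shown. A match is a description of the letters only, and the arrays did not measure binding.

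Citrate synthase, from Cs, joins acetyl-CoA to oxaloacetate. On the log2 scale it read 10.66, 10.87 and 10.67 with vehicle and 10.73, 10.74 and 10.71 with CMPF. Vehicle 2 stood above the other 5 arrays, and the CMPF values lay inside the range of the vehicle values. The difference was -0.0060 (SE 0.0916, n = 3 per group, 95% interval -0.22 to 0.21).

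Isocitrate dehydrogenase 3, the NAD-linked enzyme that makes 2-oxoglutarate, is built from the catalytic subunit of Idh3a and the subunits of Idh3b and Idh3g. All 3 subunit genes had small positive differences. Idh3a read 9.80, 9.79 and 9.78 with vehicle and 9.90, 9.80 and 9.81 with CMPF, a difference of 0.046 (SE 0.0796). The vehicle arrays lay close together, CMPF 1 was the highest, and the groups overlapped through CMPF 2. Idh3b read 9.68, 9.93 and 9.63 with vehicle and 9.70, 9.95 and 9.70 with CMPF. Both arrays of pair 2 were high, so the groups overlapped although CMPF was above vehicle within each pair, by 0.021, 0.021 and 0.070. Idh3g read 10.58, 10.64 and 10.56 with vehicle and 10.72, 10.64 and 10.53 with CMPF. Its difference of 0.035 (SE 0.0884) came from pair 1 (0.15), since pairs 2 and 3 lay at -0.0061 and -0.035.

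Ogdh encodes the first component of the 2-oxoglutarate dehydrogenase complex, which makes succinyl-CoA. On the log2 scale it read 9.41, 9.04 and 9.07 with vehicle and 9.29, 8.91 and 8.94 with CMPF. Both arrays of pair 1 were about equally far above the other arrays of their group, so the groups overlapped. Within pairs CMPF was lower by nearly the same amount, -0.12, -0.12 and -0.13. The range of these 3 pair differences, 0.0060, was among the 10 narrowest of all 18193 genes, whose median range was 0.27; this feature was singled out after the values were seen. The difference of -0.12, or -8.23% on the linear scale, had a standard error of 0.147 (95% interval -0.47 to 0.22) without the block and of 0.0739 (-0.30 to 0.06) with it, and neither fit called it. Of all genes 4.84% were lower in all 3 pairs by at least as much on average. Leaving out a single array left the pairs unbalanced and moved the difference to -0.0053 without vehicle 1 and to -0.24 without CMPF 1, whereas it lay between -0.13 and -0.12 when a whole pair was left out. Slc2a2, the glucose transporter and a beta cell marker, showed the same split between pairs. It read 10.90 and 11.46 on the arrays of pair 1 and between 9.63 and 10.30 on the other 4. Its pair differences of 0.55, -0.026 and -0.45 were uneven, unlike those of Ogdh. The markers Ucn3, Nkx6-1, Slc30a8 and Pcsk1 also read higher on both arrays of pair 1. For Iapp, G6pc2 and Pdx1 the gap was narrow: Pdx1 read 10.06 on vehicle 1 and 10.02 on vehicle 3. Ins2 was highest on vehicle 3, at 14.73. The part of these markers in the Ogdh levels was not tested.

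**Figure D1:**
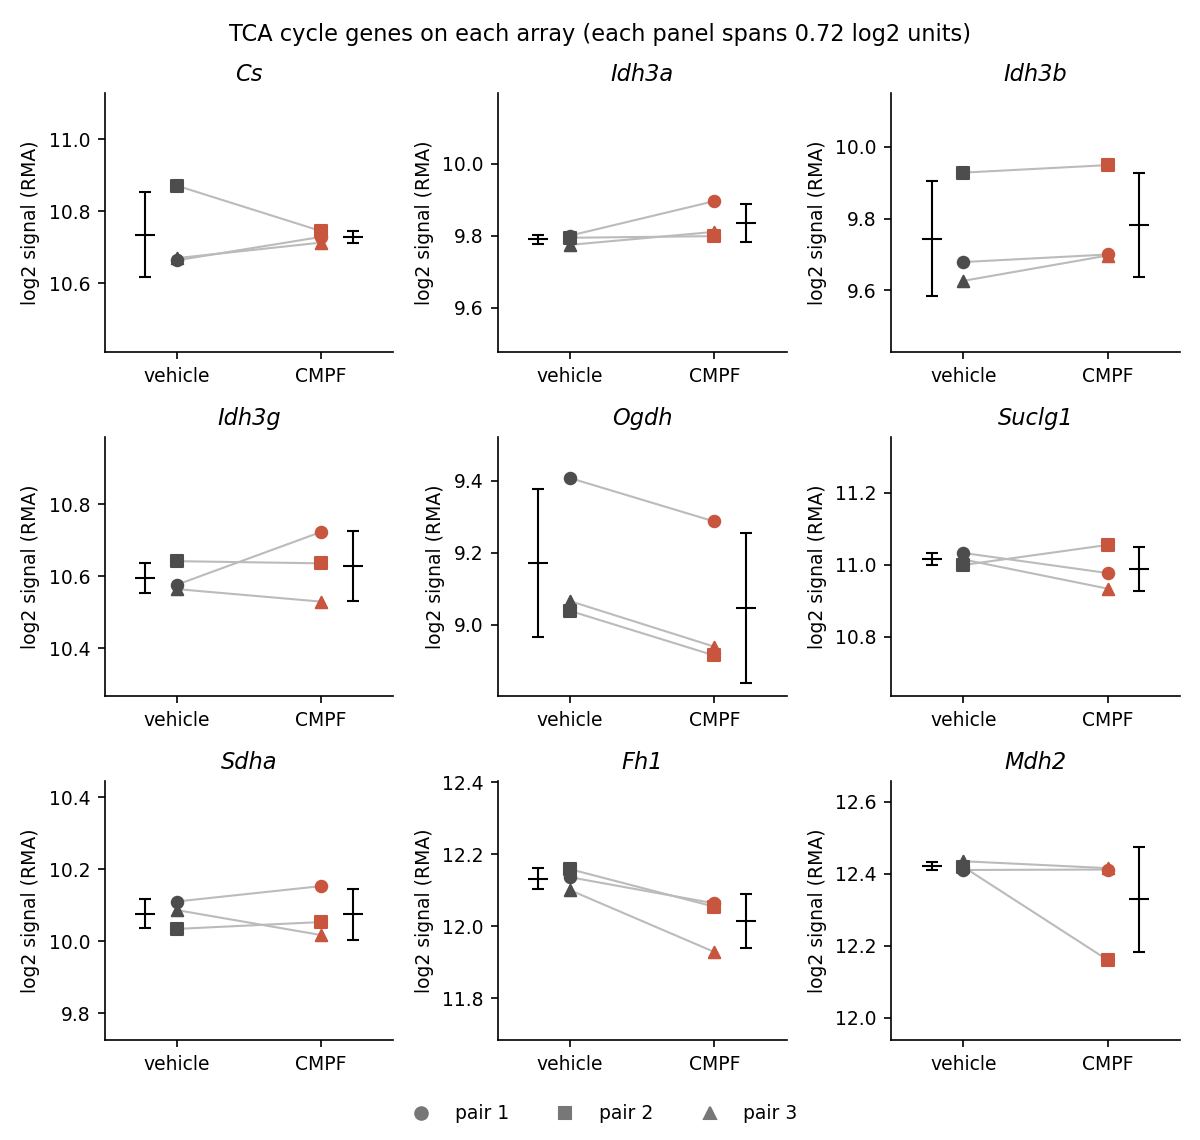
Log2 signal (RMA, vertical axis) of the brightest probe set of each of the 9 genes on each array, with vehicle in grey, CMPF in red, 1 marker shape per pair and grey lines joining pairs; black bars are the mean and SD (n = 3). The 3 lines of Ogdh run parallel, the CMPF points of Fh1 all lie below its vehicle points, and in the other 7 genes the groups overlap with no common direction or with small differences.

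The other components of that complex are the succinyltransferase of Dlst and the dihydrolipoyl dehydrogenase of Dld, which also serves the pyruvate dehydrogenase complex. Neither is among the 9 genes, and both were lower with CMPF in all 3 pairs. Dlst differed by -0.12, -0.09 and -0.04 in pairs 1 to 3 (mean -0.08, SE 0.0884). Dld differed by -0.14, -0.05 and -0.14 (mean -0.11, SE 0.114). Thus 3 of 3 genes of the complex were lower in each pair, where 11.1% of all genes were, and the mean of the 3 was -0.13, -0.09 and -0.10 in the pairs. The grouping was described after the values were seen and has no test, and none of the 3 genes was called by limma.

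Suclg1 encodes the alpha subunit shared by both forms of succinyl-CoA ligase, the step that yields ATP or GTP directly. It read 11.03, 10.999 and 11.01 with vehicle and 10.98, 11.05 and 10.93 with CMPF. The vehicle arrays spanned 0.034, CMPF 2 was the highest array and CMPF 3 the lowest, and the difference was -0.027 (SE 0.0808). The beta subunits of the GTP and ATP forms, Suclg2 and Sucla2, differed by -0.033 (SE 0.155) and -0.035 (SE 0.0795), each with mixed signs between pairs.

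Sdha encodes the flavoprotein subunit of succinate dehydrogenase. On the log2 scale it read 10.11, 10.03 and 10.09 with vehicle and 10.15, 10.05 and 10.02 with CMPF. The groups overlapped on both sides, and the difference of -0.0025 (SE 0.0835, 95% interval -0.20 to 0.19) was the smallest of the 9. The iron-sulfur subunit gene Sdhb differed by 0.043 (SE 0.0996), and the membrane anchor genes Sdhc and Sdhd by 0.0058 (SE 0.108) and -0.042 (SE 0.0776). Sdhd was lower in all 3 pairs and its groups did not overlap, but the difference in pair 2 was only -0.0034.

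Fh1 encodes fumarase, which turns fumarate into malate. It read 12.14, 12.16 and 12.10 with vehicle and 12.06, 12.05 and 11.93 with CMPF. All 3 CMPF arrays lay below all 3 vehicle arrays, as for 2.11% of all genes, and Fh1 was the only one of the 9 without overlap; 0 of 9 lay higher without overlap, as 2.41% of all genes did. The difference of -0.12 (SE 0.0836, 95% interval -0.31 to 0.08), or -7.75% on the linear scale, was not called by limma (adjusted p = 0.99995 over all genes, and 0.979 with the block). The exact two-sided permutation test gave p = 0.1, the smallest that 3 arrays against 3 allow. Any gene without overlap gets this value, so it only restates the separation. An exact test that flips the signs of the 3 pair differences gave p = 0.25, also the smallest it allows. The pair differences were -0.07, -0.10 and -0.17. Acinar markers (below) had pair medians of 0.28, 0.04 and 0.95. They differed most in pair 3, as Fh1 did, but least in pair 2, where Fh1 was intermediate. The log2 difference between the 3' and 5' control probe sets of Gapdh was likewise without overlap between groups. It read -0.027, -0.089 and -0.045 with vehicle and 0.017, 0.017 and -0.016 with CMPF, and it moved least in pair 3. For the control probe sets of Actb the groups overlapped, at 0.829, 0.703 and 0.809 with vehicle against 0.841, 0.741 and 0.761 with CMPF. The part of these measures in the Fh1 difference was not tested. Fh1 is read by 1 probe set, so no other probe set of the array checks it.

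Mdh2 encodes mitochondrial malate dehydrogenase, which regenerates oxaloacetate. It read 12.41, 12.42 and 12.43 with vehicle and 12.41, 12.16 and 12.42 with CMPF. A single array, CMPF 2, was low, and the other 5 spanned no more than the vehicle group did. The difference of -0.09 (SE 0.0986) was -0.0079 without CMPF 2. The second probe set of Mdh2 did not show the low value: it read 11.38 on CMPF 2, and its lowest array was CMPF 1 at 11.19.

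**Figure D2:**
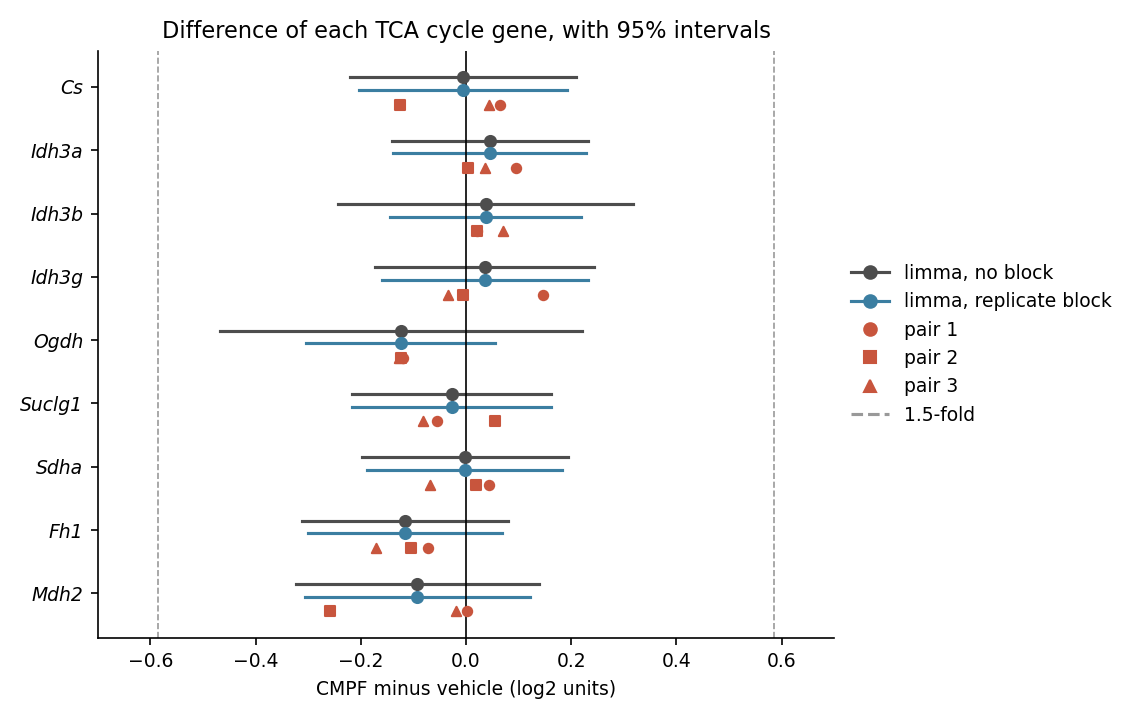
CMPF minus vehicle in log2 units (horizontal axis) for the 9 genes: grey points and bars are limma's estimate and 95% interval without a block, blue ones those with the replicate number as a block, and red markers the 3 pair differences. Every interval crosses 0 and stays inside the dashed lines at 1.5-fold; the block narrows the interval of Ogdh and Idh3b most.

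The 9 genes were read by 22 probe sets, of which the brightest stood for its gene above. Of the 22, 13 had a difference below 0 and 9 above, none reached an unadjusted limma p under 0.05 (lowest 0.219), 5 were lower in all 3 pairs and 2 higher. Over all 34945 probe sets with 1 gene these shares were 11.5% and 11.8%. Of the 13 other probe sets 6 were dimmer than the median gene (6.42), and with no detection calls in the table it is unknown whether such a set was detected.

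Probe sets of the same gene did not always point the same way. The bright second set of Idh3g read 10.10, 10.21 and 10.10 with vehicle and 10.04, 10.16 and 9.97 with CMPF. It was thus lower in all 3 pairs, with a difference of -0.08 (SE 0.0926) against 0.035 for the main set. For Idh3a the 4 sets differed by 0.046, -0.11, 0.15 and 0.0048, the last 3 dim or close to the median gene. For Ogdh the dim second set also lay lower, by -0.09 (SE 0.109), but its pair differences were -0.04, 0.02 and -0.25 and did not repeat the even spacing of the main set. The 3 sets of Cs differed by -0.0060, -0.07 and -0.0065. The main set of Idh3b and 1 set each of Idh3a and Sdha carry an Affymetrix suffix for probes that may match transcripts of more than 1 gene, and a further Idh3a set one for possible cross-hybridisation. Their values are uncertain to that extent.

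**Figure D3:**
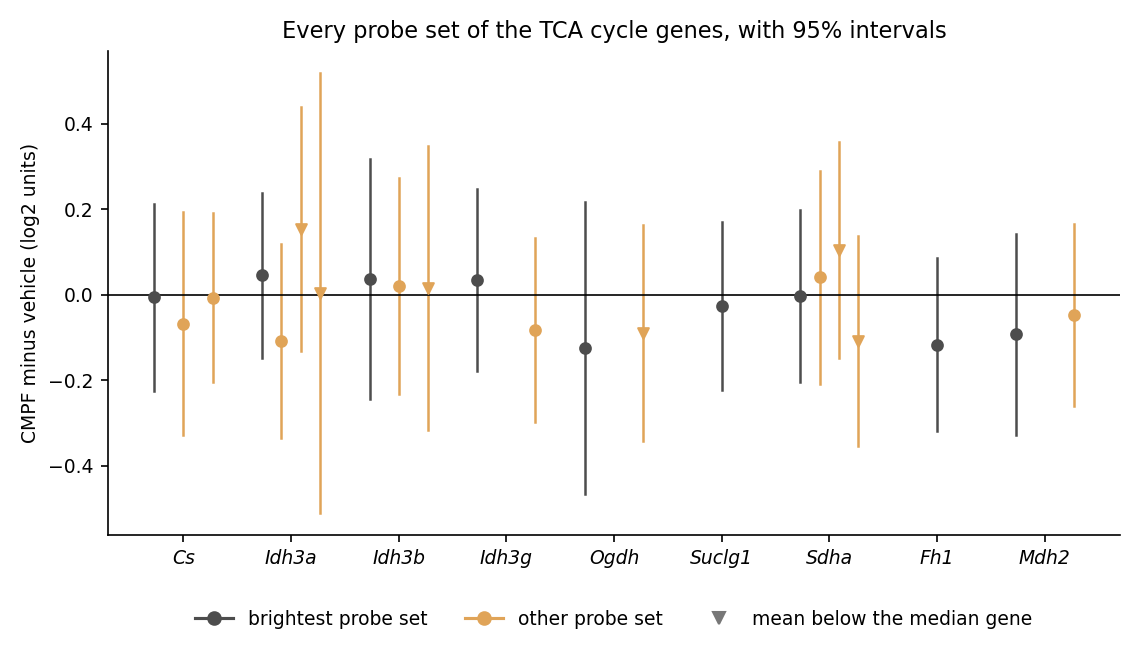
CMPF minus vehicle in log2 units (vertical axis) with 95% intervals for all 22 probe sets, grouped by gene; grey is the brightest set of a gene, yellow the others, and triangles mark sets whose mean lies below the median gene. All intervals cross 0, and the sets of Idh3a, Idh3g and Sdha fall on both sides of it.

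The level of each gene was high on this array: the mean of each of the 9 lay above those of at least 85.5% of all genes. Brightness also depends on the probes, so no order of levels among the 9 is given. The mean log2 signal of the 9 genes lay at 10.65, 10.65 and 10.59 with vehicle and 10.66, 10.60 and 10.55 with CMPF, so the groups overlapped. Over the 6 arrays the 9 genes did not vary as a block. The 36 pairwise correlations ran from -0.67 for Idh3b with Mdh2 to 0.81 for Ogdh with Sdha, with a median of 0.20, and 12 were below 0. These are descriptions over 6 paired arrays that share a normalization. The genes above the median level that tracked the mean of the 9 most closely were Wdr13 (r = 0.996), Pcif1 (0.981), Deptor (0.979), Nup88 (0.969) and Tecr (0.968), the highest of 9087 searched. A search this wide over 6 arrays returns high values through its size alone, so no link to the cycle is read from them.

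The rest of the cycle and its surroundings also showed small differences. Together with 8 other subunit genes the cycle had 17 measured genes, with a median difference of -0.033. Of these 17, 5 were lower in all 3 pairs (Ogdh, Fh1, Dlst, Dld and Sdhd) and 2 higher, beside 11.1% and 11.8% of all genes, and 0 were called. Idh2, the NADP-linked mitochondrial isocitrate dehydrogenase, differed by -0.033 (SE 0.101), with 0.14 in pair 1 and -0.12 and -0.11 in pairs 2 and 3.

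**Figure D4:**
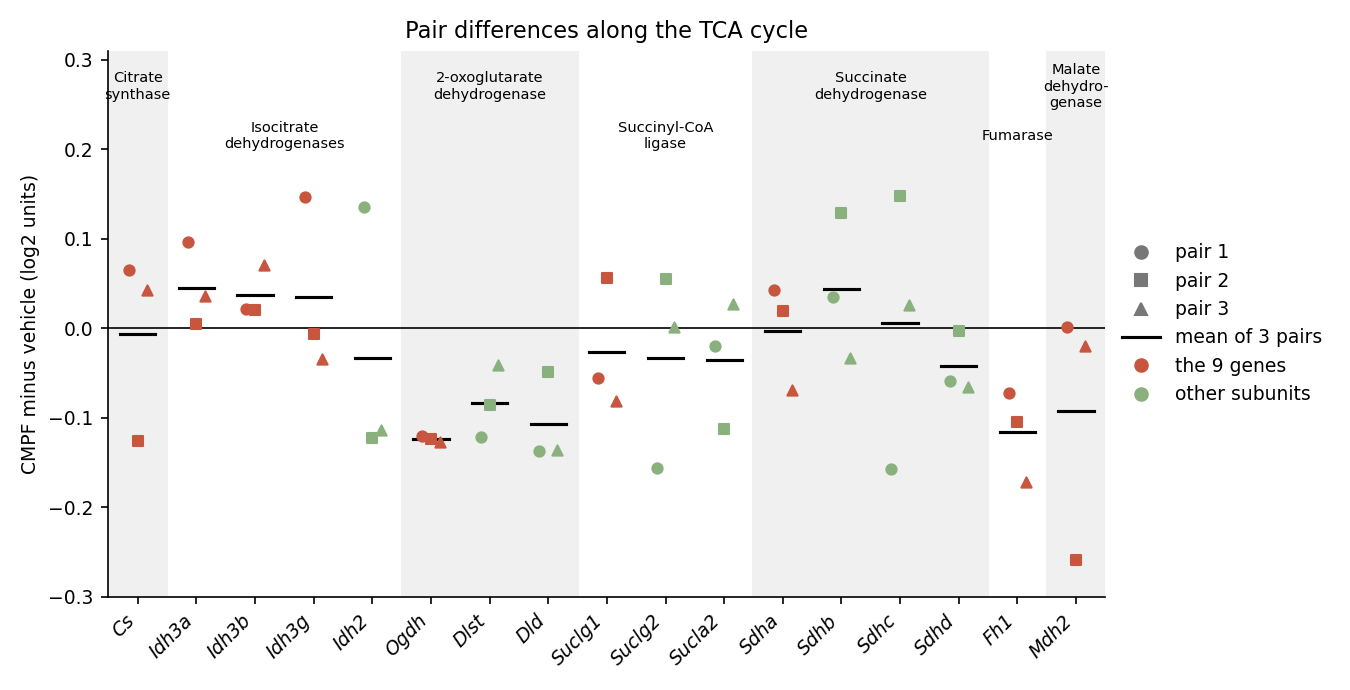
Pair differences, CMPF minus vehicle in log2 units (vertical axis), for 17 genes in the order of the cycle; red markers are the 9 genes, green the other subunits, shapes the pairs and black bars the mean of 3 pairs. All 9 points of the 2-oxoglutarate dehydrogenase complex and all 3 of Fh1 lie below 0, those of Idh3a and Idh3b lie above it, those of Sdhd lie below but close to it, and the other genes have points on both sides.

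In the lists around the cycle no gene was called either. The counts below of genes lower or higher in all 3 pairs stand beside 11.1% and 11.8% of all genes. The complex II assembly factors had a median of -0.037 (4 of 4 measured, 1 lower and 0 higher in all 3 pairs), with Sdhaf2 at -0.08 (SE 0.0796) and Sdhaf4 at -0.049 (SE 0.0815). For pyruvate entry the median was -0.06 over 6 of 7 genes, 2 lower and 0 higher. Pdhx, which anchors dihydrolipoyl dehydrogenase in the pyruvate dehydrogenase complex, differed by -0.23 (SE 0.113; adjusted p = 0.99995 in limma's fit over all genes). It was lower in all 3 pairs, by -0.46, -0.07 and -0.16, and had the smallest unadjusted p of the 52 measured genes of the cycle and these lists. Mpc1, a subunit of the mitochondrial pyruvate carrier, differed by -0.11 (SE 0.0968), with pair 3 above 0. Cytosolic partners and metabolite shuttles had a median of 0.011 over 15 of 15 genes, 3 lower and 1 higher in all 3 pairs. Within them Aco1, cytosolic aconitase, differed by -0.19 (SE 0.111), mainly through pair 2 (-0.48), and Got1, cytosolic aspartate aminotransferase, by 0.10 (SE 0.0913). Genes of general mitochondrial content had a median of -0.016 over 10 of 10 genes, 1 lower and 1 higher. Tfam, which packages and transcribes mitochondrial DNA, differed by -0.16 (SE 0.105), and Tomm20, an import receptor, by -0.09 (SE 0.112).

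The samples carried the markers of islets and of other pancreatic tissue. Of 9 measured beta cell markers Ins2, insulin, and Iapp, amylin, read between 14.52 and 14.73 on all 6 arrays, at the top of the array's range. Slc2a2, in contrast, ran from 9.63 to 11.46. The beta cell list had pair medians of 0.0285, -0.026 and -0.16. In all 3 pairs 1 marker was lower and 0 higher, beside 11.1% and 11.8% of all genes. The summed signal of the list, on the log2 scale, ran from 15.93 to 16.09 with vehicle and from 15.94 to 16.09 with CMPF. The brightest markers weigh most in this sum. Acinar markers, from the enzyme-secreting tissue around the islets, summed to between 15.18 and 16.62 with vehicle and between 15.92 and 16.71 with CMPF. Of 11 measured acinar markers 9 were higher in all 3 pairs and 0 lower, beside 11.8% and 11.1% of all genes. Their pair medians were 0.28, 0.04 and 0.95. Stellate and fibroblast markers had pair medians of -0.42, -0.52 and 0.29, with 0 of 8 in 1 direction in all pairs. Endothelial markers were higher in all 3 pairs for 4 of 7, beside the same 11.8% of all genes (pair medians 0.0057, 0.35 and 0.33). The other lists had medians of -0.06 for alpha cells (3 measured), -0.0098 for delta and PP cells (4), 0.10 for duct cells (5) and 0.06 for macrophages (7). The part of these cell types in the differences of the TCA cycle genes was not tested.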

How the data were processed

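Per the labels, islet RNA was purified on columns, and 200 ng of it was labelled with biotin. The authors deposited log2 values per probe set. The submitters' processing notes name RMA and Affymetrix Expression Console 1.1, with no settings. RMA puts all arrays on 1 probe distribution, so differences in total signal are removed. Array medians were 5.08 to 5.15, no 2 arrays were identical, and any 2 correlated across genes at 0.989 or more. The number of arrays limits the precision.

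Of 45101 probe sets, 64 controls were left out, as were 932 with several genes and 9160 with none; 34741 of the 34945 with 1 gene matched RefSeq by Entrez ID. Each of 18193 genes took its brightest probe set. limma 3.58.1 (R 4.3.3, lmFit, eBayes, two-sided, Benjamini-Hochberg over all genes, threshold 0.05) compared CMPF with vehicle. The steps were tested on simulated data with unpaired arrays and planted changes larger than the differences of the members. That test therefore does not cover differences as small as theirs. Every probe set was also fitted, over all 34945. Equal replicate numbers pair the samples, from the data: deviations from group means correlated at 0.488 to 0.638 for equal numbers and at -0.555 to 0.0885 for unequal ones. Deviations cancel out within a group, so positive values for equal numbers push the unequal ones down, and these are not separate evidence. The alternatives were a replicate block, probe set means, a second quantile normalization, median centring, filters at the 25th percentile and median, a variance trend, array weights, and leaving out arrays or pairs.

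The members and lists were chosen with earlier results of these data known. Named are all members, the measured other subunits and the 2 genes of smallest p in each pathway list. Also named are up to 3 markers a list in listed order and the 5 genes closest to the members' mean. Outside this rule, all 9 measured beta cell markers are named beside Ogdh, for their levels on the arrays of pair 1.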

Additional observations from a re-analysis of the deposited data

How the results depend on the processing

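Under all 17 alternatives 0 genes and 0 of the 9 members passed the threshold, the replicate block included (lowest adjusted p of a member 0.978). At an unadjusted limma p under 0.05 there were 205 genes, 692 with the replicate block, and between 104 and 805 when arrays or pairs were left out; no member was among them. The replicate block changed no call. The median difference of the 9 members, -0.0060, was 0.029 with a second quantile normalization, between -0.028 and 0.0020 when 1 array was left out, and between -0.025 and -5e-05 without a pair. Members lower in all 3 pairs numbered 2, where 11.1% of all genes were, and 3 with probe set means. When a pair was left out, between 2 and 4 members were lower in both remaining pairs, with 4 without pair 1. Being lower in only 2 pairs is easier to reach than in 3. The share of all genes lower in both was not counted, so the 4 is not read as a gain. Leaving out a single array breaks its pair and gave no such count. Ogdh, Fh1, Mdh2 and Idh3a kept their sign throughout. The other 5 changed sign in 19 of their 85 values, at most 0.062 from 0 and never called. With the second quantile normalization Cs was at 0.029, Suclg1 at 0.010 and Sdha at 0.029. With probe set means Idh3g was at -0.024 and Sdha at 0.0090. With array weights Cs was at 0.026 and Ogdh at -0.20. When 1 array was left out, Cs ranged from -0.042 to 0.062, Idh3b from -0.046 to 0.13, Idh3g from -0.012 to 0.085, Suclg1 from -0.060 to 0.00040 and Sdha from -0.042 to 0.026. Cs was at 0.054 without pair 2, Idh3g at -0.020 without pair 1 and Sdha at 0.031 without pair 3. The cause of these sign changes was not tested.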
